A study of Mus musculus with 12 samples.

Results

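The Bcl2 family of cell death proteins was followed by the probe sets whose gene symbol in the array's annotation is Bcl2, Bcl2l1, Mcl1, Bcl2l11, Bax, Bak1, Bbc3, Pmaip1, Bid or Bad. Of these 10 genes, 9 matched 1 probe set each, out of 19938 genes and 35556 probe sets on the array, and Bax is not analysed here. All 9 had a mean above 131.1, the median intensity over the array, so no member depended on a filter for dim probe sets. RNA came from cultured myeloid progenitors of mice, 3 arrays in each of 4 groups. The group labelled Myc Zfx ko and the group labelled Myc Zfx wt carried a retrovirus with Myc and a GFP marker. The group labelled GFP Zfx ko and the group labelled GFP Zfx wt carried a control retrovirus with GFP alone. The ko groups came from Zfx fl/y CreER mice, in which the X-linked gene for the zinc finger transcription factor Zfx is floxed, and the wt groups from Zfx wt/y CreER mice. All 4 groups thus carried the tamoxifen-activated CreER recombinase, and tamoxifen was given at 5 mg by daily gavage for 3 days. c-Kit+ bone marrow cells were infected, kept in culture for 48 hours, sorted for GFP and then cultured for a further 4 days; the medium held SCF, IL-6 and IL-3, each at 10 ng/mL. The labels do not state the age of the mice, the promoter that drives CreER or the number of animals behind an array. The design sets the response to Myc beside the presence or loss of Zfx.

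Proteins of the Bcl2 family decide whether the outer mitochondrial membrane is opened during apoptosis. Bcl2, Bcl2l1 (Bcl-xL) and Mcl1 keep the cell alive by holding the pore-forming effectors Bax and Bak1 and the BH3-only proteins in check. The BH3-only proteins Bcl2l11 (Bim), Bbc3 (Puma), Pmaip1 (Noxa), Bid and Bad respond to stress, cytokine withdrawal or p53 and either block the survival proteins or activate the effectors. In blood-forming cells Mcl1 is needed for progenitor survival, and forced Myc expression is known to sensitise cells to apoptosis, in part through p53 and Bim.

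The arrays give intensities made by the authors with RMA (a background correction, quantile normalization and summary over the probes of a probe set), here on a linear scale. Differences are given as log2 of intensity from a limma fit with a mean for each group over all 12 arrays, and a gene was called when its p, adjusted by Benjamini-Hochberg over all 19938 genes, was under 0.05. Nothing in the labels says that arrays of a group came from separate animals or cultures, so these p-values measure the spread between arrays. The Myc probe set was 1.87-fold higher with the Myc virus in Zfx ko (limma adjusted p = 3.42e-04) and 1.74-fold higher in Zfx wt (adjusted p = 7.24e-04). The Zfx probe set had a mean intensity of 1021 to 1048 in the groups labelled ko against 946 to 992 in the groups labelled wt, and was not called. Which part of the transcript its probes cover is not given, so it does not check the deletion, and the genotype rests on the labels throughout. Arrays of equal replicate number deviated together from their group means in all 18 cross-group pairs (correlation across genes 0.40 to 0.85). Results of a fit that blocks on this number are therefore given where they change a call of a member, and for some genes of the other lists.

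Bcl2, the founding survival protein, was the member that changed most, and it fell with Myc in both genotypes. In cells labelled Zfx ko its intensity was 466, 536 and 421 with the Myc virus, against 979, 756 and 957 with the GFP virus (replicates 1 to 3). In Zfx wt cells it was 691, 575 and 663 with the Myc virus, against 1253, 795 and 1125 with the GFP virus. Each of the 6 arrays with Myc was lower than each of the 6 arrays with GFP, the nearest being 691 in Myc Zfx wt and 756 in GFP Zfx ko. With Myc, Bcl2 was 1.89-fold lower in ko (95% interval 1.46 to 2.45, limma adjusted p = 0.00632) and 1.62-fold lower in wt (1.25 to 2.1, adjusted p = 0.0274). It was lower in 3 of 3 same-numbered pairs in each genotype, by -1.07, -0.49 and -1.18 on the log2 scale in ko and by -0.86, -0.47 and -0.76 in wt. The call in ko held without each of the 6 arrays in turn, with adjusted p at most 0.0318. The call in wt was lost without Myc Zfx wt 1, 2 or 3 (adjusted p = 0.0555, 0.0861 and 0.0796) and without GFP Zfx wt 1 or 3 (0.0986 and 0.109). It was also lost in a fit of only the groups compared (0.0683).

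Between genotypes the differences in Bcl2 were smaller. Under the Myc virus the 3 ko arrays all lay below the 3 wt arrays, and the log2 difference of -0.44 ± 0.17 (SE) missed the threshold (limma adjusted p = 0.207). Under the GFP virus the difference was -0.22 ± 0.17 and the arrays overlapped (adjusted p = 0.702). The interaction, the Myc effect in ko minus that in wt, was -0.22 with a 95% interval of -0.75 to 0.31. In RNA from a whole culture, fewer cells of a type and less RNA per cell cannot be told apart, for Bcl2 and for every gene below.

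**Figure D1:**
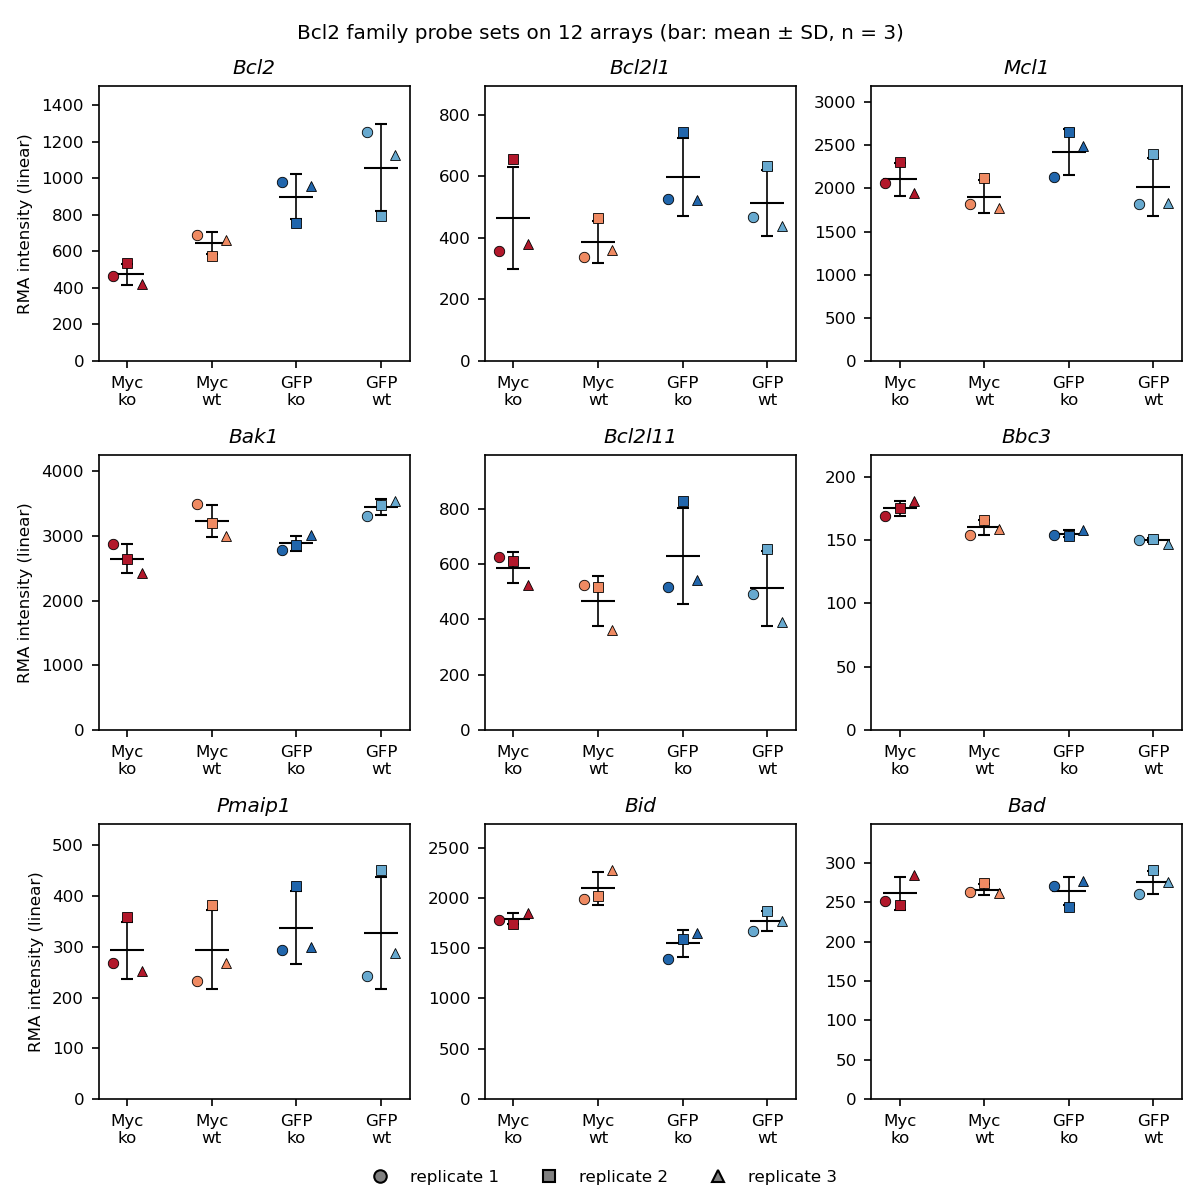
RMA intensity on a linear scale (y axis) of the 9 measured Bcl2 family genes on each of the 12 arrays, by group (x axis, Myc ko, Myc wt, GFP ko, GFP wt); symbols give the replicate number and black bars the mean ± SD (n = 3). Bcl2 lies between 421 and 691 on the arrays with Myc and between 756 and 1253 on the arrays with GFP, and the squares (replicate 2) stand above the other symbols in every group for Bcl2l1, Mcl1 and Pmaip1.

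The Bcl2 probe set (10357043) belongs to a gene on chromosome 1. The 250 bases before its RefSeq start site (GRCm38.p6, chr1:106714291-106714540, minus strand) are shown because Bcl2 is the member with the widest spread between groups. They were searched for CACGTG, the E-box that Myc and Max bind, and for AGGCCT, the core of the motif known for Zfx. Both motifs read the same on both strands and cannot overlap each other. Neither motif is in this window, which is 74.8% G and C, so no letter is in capitals.
Bcl2 upstream: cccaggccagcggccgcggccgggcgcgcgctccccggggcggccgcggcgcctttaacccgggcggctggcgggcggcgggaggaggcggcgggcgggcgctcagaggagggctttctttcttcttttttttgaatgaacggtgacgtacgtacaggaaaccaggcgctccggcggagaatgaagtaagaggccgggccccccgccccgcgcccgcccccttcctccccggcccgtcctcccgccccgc

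The same window before the most upstream start was searched for 8 of the 9 members. Pmaip1, on chromosome 18, was left out by a filter that the count over all genes did not use. CACGTG was in 0 of the 8 and in 6.04% of the windows of 27025 genes. AGGCCT was in 1 of the 8, that of Bbc3, and in 8.76% of all windows. A match here is a run of letters and does not show binding, and a window without one says nothing about the factor.

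Bcl2l1 encodes Bcl-xL, the survival protein that maturing red cells depend on. Its intensity was 358, 658 and 379 in Myc Zfx ko, against 528, 745 and 525 in GFP Zfx ko. In Zfx wt it was 337, 466 and 360 with Myc, against 468, 635 and 439 with GFP. Replicate 2 was the highest array of every group, and the Myc and GFP arrays overlapped in both genotypes. Within each replicate number the Myc array was the lower. The log2 difference with Myc was -0.40 ± 0.25 (SE) in ko (limma adjusted p = 0.406) and -0.40 ± 0.25 in wt (adjusted p = 0.45). Blocked on replicate number it was -0.40 ± 0.09 in each, with limma adjusted p = 0.00691 in ko and 0.00877 in wt. Bcl2l1 in ko against wt differed by 0.22 ± 0.25 under each virus and was called neither with nor without the block.

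Mcl1, a short-lived survival protein of progenitors and granulocytes, had an intensity of 2135, 2656 and 2489 in GFP Zfx ko, against 1825, 2402 and 1827 in GFP Zfx wt. The ko array was the higher in 3 of 3 same-numbered pairs, although the groups overlapped. The log2 difference was 0.27 ± 0.13 (limma adjusted p = 0.367; 0.0287 with the block). With the Myc virus Mcl1 was 2058, 2312 and 1944 in ko, against 1825, 2122 and 1771 in wt, a difference of 0.14 ± 0.13 (adjusted p = 0.763). Its differences with Myc, -0.20 in ko and -0.07 in wt, were not called in either fit, with 95% intervals of -0.48 to 0.08 in ko and -0.36 to 0.21 in wt.

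Bak1, the measured pore-forming effector, stood lower in the arrays labelled Zfx ko under both viruses. Its intensity was 2878, 2639 and 2424 in Myc Zfx ko, against 3501, 3197 and 3000 in Myc Zfx wt. With the GFP virus it was 2777, 2861 and 3016 in ko, against 3314, 3483 and 3543 in wt. The ko arrays did not overlap the wt arrays under either virus, and the same-numbered log2 differences lay between -0.31 and -0.23 in all 6 pairs. The difference was -0.29 ± 0.08 with Myc (1.22-fold lower, limma adjusted p = 0.057; 0.0315 with the block). With GFP it was -0.26 ± 0.08 (1.2-fold lower, adjusted p = 0.107; 0.0562 with the block), so Bak1 was called under the Myc virus with the block, and also without it when Myc Zfx ko 1 was left out (0.0348). Whether the genotype difference of Bak1 depends on the virus was tested as the interaction, which was -0.03 with a 95% interval of -0.27 to 0.21.

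Bid, the BH3-only protein that caspase 8 cleaves to link death receptors to mitochondria, differed along both axes of the design. Its intensity was 1782, 1741 and 1849 in Myc Zfx ko and 1985, 2019 and 2278 in Myc Zfx wt, against 1396, 1591 and 1652 in GFP Zfx ko and 1675, 1870 and 1771 in GFP Zfx wt. No pair of groups that differed in 1 factor overlapped: Myc arrays were higher than GFP arrays within a genotype, and ko arrays were lower than wt arrays within a virus. Without the block none of these differences was called (limma adjusted p = 0.0921 to 0.249). With it Bid rose 1.16-fold with Myc in ko (adjusted p = 0.0276) and 1.18-fold in wt (adjusted p = 0.0207). Bid was 1.17-fold lower in ko than in wt under the Myc virus (limma adjusted p = 0.0372 with the block). Under the GFP virus the log2 difference was -0.20 (adjusted p = 0.0643 with the block).

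Bbc3 encodes Puma, a p53-induced BH3-only protein that binds all survival members. Its signal was near the middle of the array, at 147 to 181 beside a median of 131.1 over all probe sets. Whether a signal at this level is above background was not tested. Its arrays spread little within groups. The intensity was 169, 175 and 181 in Myc Zfx ko, against 154, 153 and 158 in GFP Zfx ko. In Zfx wt it was 154, 166 and 159 with Myc, against 150, 151 and 147 with GFP. With Myc, Bbc3 rose 1.13-fold in ko (95% interval 1.05 to 1.21, limma adjusted p = 0.0375), higher in 3 of 3 pairs. This call was lost without any 1 of 5 of the 6 arrays (adjusted p = 0.0658 to 0.141) and held without Myc Zfx ko 1 (0.0433). With all arrays of both groups it was also lost under a second quantile normalization (0.0583), median centring (0.0643), a trended and robust prior (0.143) and a fit of only the groups compared (0.142). The call held with the replicate block (0.0206). In wt the difference was 0.10 ± 0.05 on the log2 scale (adjusted p = 0.301). Relative to wt, ko differed by 0.13 ± 0.05 under Myc (adjusted p = 0.194) and by 0.05 ± 0.05 under GFP (adjusted p = 0.796). The AGGCCT in the window before the most upstream listed start of Bbc3 begins 164 bases before it, at the capitals in 30 bases of GRCm38.p6, chr7:16309407-16309436, plus strand, shown because Bbc3 is the member with a match.
Bbc3 upstream site: cctgcctggaccAGGCCTcgccccgcccct

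The other BH3-only members were not called in any contrast in either fit. Bcl2l11 encodes Bim, which is induced when cytokines are withdrawn. Its intensity was 627, 611 and 523 in Myc Zfx ko and 523, 518 and 361 in Myc Zfx wt, against 519, 829 and 541 in GFP Zfx ko and 491, 656 and 389 in GFP Zfx wt. Bcl2l11 was higher in ko than in wt in 6 of 6 same-numbered pairs, by 0.34 ± 0.23 (log2) with Myc (limma adjusted p = 0.6; 0.136 with the block) and 0.30 ± 0.23 with GFP (0.704; 0.211 with the block). With Myc it differed by -0.07 in ko and -0.12 in wt, with signs that varied between pairs. Pmaip1, which encodes Noxa, a selective partner of Mcl1, ranged from 252 to 358 in Myc Zfx ko and 233 to 382 in Myc Zfx wt, against 293 to 421 in GFP Zfx ko and 243 to 452 in GFP Zfx wt. Its log2 differences with Myc were -0.20 in ko and -0.13 in wt, lower in 6 of 6 pairs, with 95% intervals of -0.78 to 0.37 in ko and -0.71 to 0.44 in wt. Bad, which growth factor signalling inactivates by phosphorylation, stayed within 244 to 291 on all 12 arrays. Its 95% intervals in the 4 comparisons of groups lay within -0.23 to 0.15 (log2).

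In counts, limma called 2 of the 9 members with Myc in ko, Bbc3 up and Bcl2 down, where 13.2% of all genes were called, 8.58% higher and 4.59% lower. In wt it called 1 of 9, Bcl2, where 9.28% of all genes were called, 6.17% of all genes higher and 3.11% lower. With the replicate block the calls were 4 of 9 in ko (Bbc3 and Bid up, Bcl2 and Bcl2l1 down; 24.9% of all genes, 14.5% higher and 10.4% lower) and 3 of 9 in wt (Bid up, Bcl2 and Bcl2l1 down; 20.5% of all genes, 12.2% higher and 8.25% lower). In ko the Myc and GFP arrays did not overlap for 2 members that were higher and 1 that was lower, where 25.5% of all genes did not overlap, 15.6% higher and 9.88% lower. In wt these were also 2 and 1, where 24.5% of all genes did not overlap, 15.1% higher and 9.44% lower. The median log2 difference of the 9 with Myc was -0.13 in ko and -0.09 in wt, beside 0.01 in ko and 0.00 in wt over all genes, and 7 of 9 were negative in each genotype.

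Between genotypes limma called 0 of the 9 members under either virus, where 5.46% of all genes were called under Myc (1.74% higher and 3.72% lower) and 4.11% under GFP (1.17% higher and 2.94% lower). At an unadjusted p under 0.05 there were 4 of 9 under Myc, where 15.8% of all genes had such a p, and 2 of 9 under GFP, where 14.6% had. With the block 2 of 9 were called under Myc (Bak1 and Bid, both lower in ko; 14.1% of all genes, 6.05% higher and 8.03% lower) and 1 of 9 under GFP (Mcl1, higher in ko; 12.2%, 5.12% higher and 7.12% lower). The ko and wt arrays did not overlap for 1 member higher and 3 lower in ko under Myc, where 19.5% of all genes did not overlap, 8.4% higher and 11.1% lower. Under GFP these were 1 and 2, where 17.9% of all genes did not overlap, 7.44% higher and 10.5% lower. The interaction called 0 of the 9 and 0% of all genes, with 0 of the 9 and 1.72% of all genes at an unadjusted p under 0.05. With the block it called 0 of the 9 and 0.00502% of all genes. The 4 comparisons of groups share arrays in pairs, so a low or high group enters a Myc comparison and a genotype comparison at once.

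**Figure D2:**
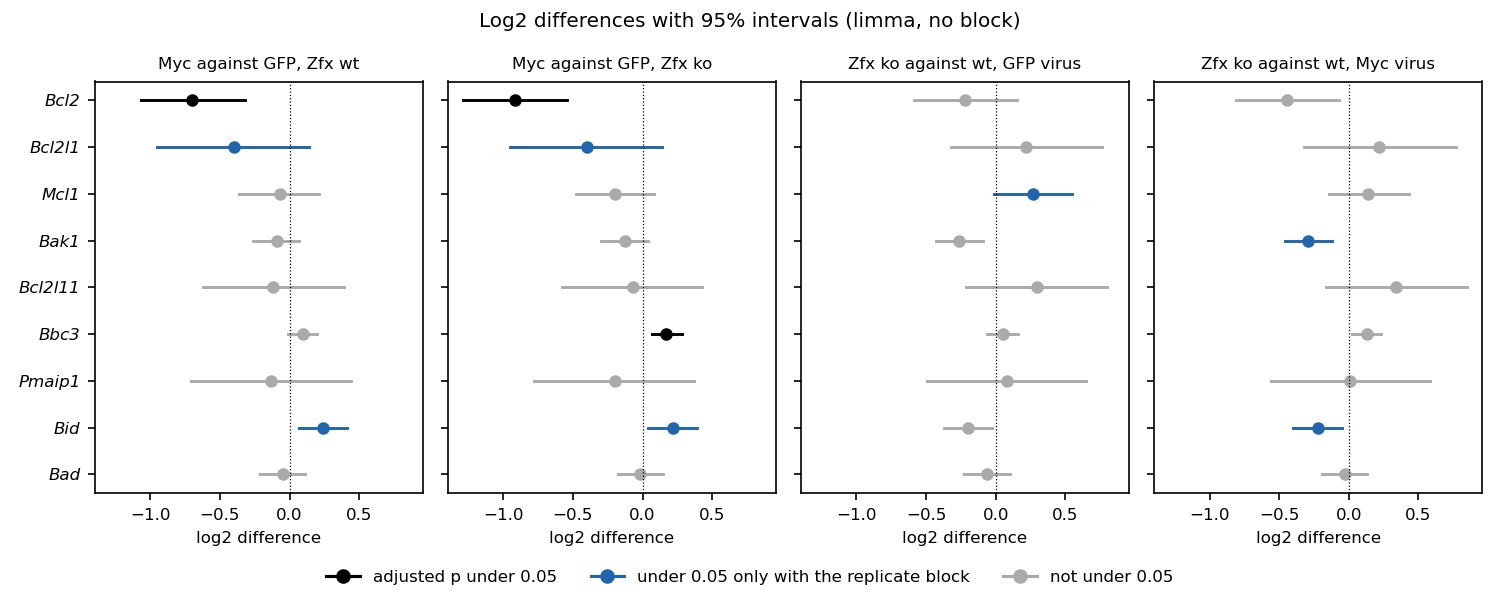
Log2 difference (x axis) with its 95% interval from the limma fit without a block for the 9 members (rows) in the 4 comparisons of groups (panels); black marks an adjusted p under 0.05, blue an adjusted p under 0.05 only with the replicate block, grey neither. Bcl2 lies at -0.70 and -0.92 in the Myc panels, and the wide intervals of Bcl2l1, Bcl2l11 and Pmaip1 contrast with the narrow ones of Bbc3, Bad, Bid and Bak1.

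The members differed in how far their arrays spread within groups, and for several the spread followed the replicate number. The pooled SD within groups was 0.04 (log2) for Bbc3, 0.09 for Bak1 and Bad and 0.10 for Bid. It was 0.36 for Pmaip1, 0.34 for Bcl2l1 and 0.31 for Bcl2l11. For Pmaip1 the array numbered 2 was the highest in 4 of 4 groups, by 0.31 to 0.52 above the group mean. The same held for Bcl2l1, by 0.28 to 0.56, and for Mcl1, by 0.14 to 0.26. For Bcl2 the array numbered 2 was the lowest in 3 of 4 groups. It was the highest in Myc Zfx ko, and the Bcl2 differences with Myc were smallest in pair 2 in both genotypes. Without the 4 arrays numbered 2, a choice made after seeing the data, Bcl2 differed by -1.13 with Myc in ko (limma adjusted p = 0.00251) and by -0.81 in wt (adjusted p = 0.00683). In the same 8 arrays Bcl2l1 fell by 0.51 on the log2 scale with Myc in ko (adjusted p = 0.00917) and by 0.38 in wt (adjusted p = 0.0259). Bcl2 fell there by 0.61 in ko against wt under Myc (adjusted p = 0.0167), and Bbc3 lost its call (0.191). Without the arrays numbered 1 or those numbered 3, Bcl2 was not called with Myc in ko (adjusted p = 0.0867 and 0.193) or in wt (0.206 and 0.367). In the same subsets Bcl2l1 was not called with Myc in ko (0.746 and 0.816) or in wt (0.765 and 0.836), nor Bcl2 in ko against wt under Myc (0.583 and 0.936). The labels do not state what the replicate numbers stand for.

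**Figure D3:**
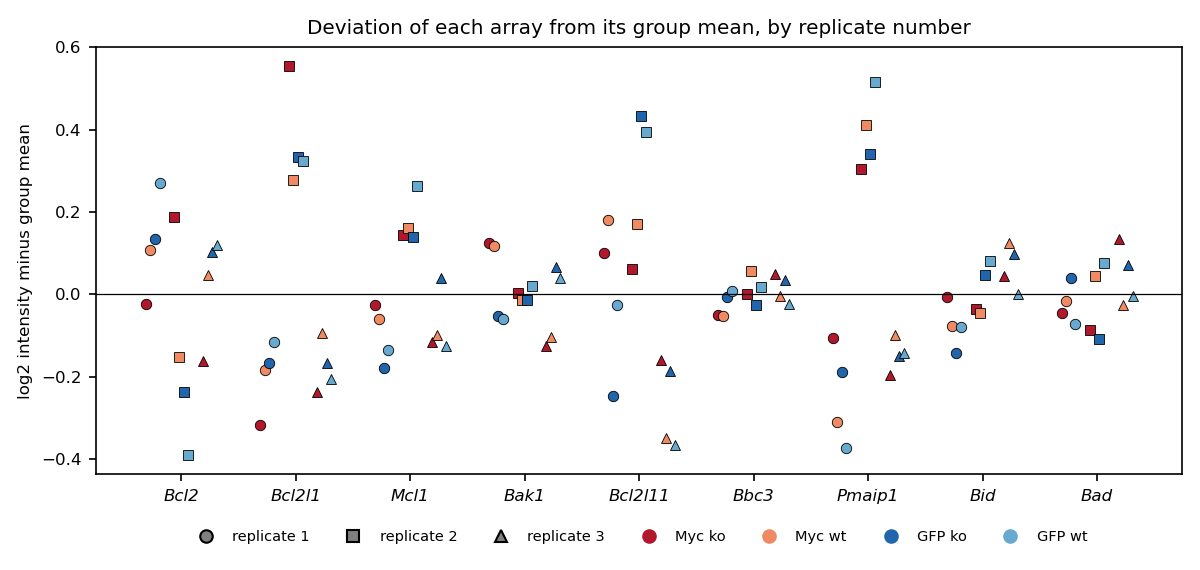
Log2 intensity of each array minus the mean of its group (y axis) for the 9 members (x axis), with symbols for the replicate number and colours for the group (n = 12 arrays). The squares (replicate 2) lie above 0 in all 4 groups for Bcl2l1, Mcl1, Bcl2l11 and Pmaip1, while Bbc3 stays close to 0 on every array.

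Among all genes, the 3 whose profile over the 12 arrays was closest to that of Bcl2, after each was centred on its mean, were Glb1l, Megf9 and Cpne2. Their root mean square differences from Bcl2 were 0.13, 0.15 and 0.16 (log2), while Bcl2 itself had an SD of 0.48 over the arrays. Glb1l had mean intensities of 346 in Myc Zfx ko, 420 in Myc Zfx wt, 551 in GFP Zfx ko and 664 in GFP Zfx wt. That this is the order of Bcl2 follows from how the gene was picked.

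Among 4 measured survival relatives of the family outside the members and 10 BH3 and other relatives, limma called 0 in every contrast. At an unadjusted p under 0.05 there were 2 of the 10 with Myc in wt, 1 of the 10 in ko against wt under GFP, and 0 in the other contrasts of both lists. Over all genes the share with such a p was 24% with Myc in ko and 20.4% in wt. For ko against wt it was 15.8% under Myc and 14.6% under GFP. With the block, Bcl2a1c was called lower with Myc in ko (-0.85, limma adjusted p = 0.004) and in wt (-1.10, adjusted p = 0.00156). Bcl2a1c belongs to a group of near-identical genes, so its signal may be shared with its neighbours, and its call does not show that a working survival gene fell. Also with the block, Bnip3, a mitophagy receptor, rose with Myc in wt (0.82, adjusted p = 0.0296), and Bmf, a BH3-only protein, rose in ko against wt under Myc (0.23, adjusted p = 0.0383). These 3 genes were named after their values were seen.

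Downstream of the membrane, Endog rose and Apaf1 fell with Myc in both genotypes, and Htra2 and Aifm1 rose in ko. In wt Htra2 (limma adjusted p = 0.065) and Aifm1 (0.054) missed the threshold, and both were called higher with the block (0.033 and 0.00425). Of the 30 calls of cell death genes outside the members given here and below, 7 held without each array in turn and 23 were lost without at least 1. Under the alternatives that keep all arrays of the groups compared, 10 held and 20 were lost under at least 1. Among the lost ones were Apaf1 in wt with median centring (0.0826) and, with only the groups compared, Tnfrsf1b in ko (0.0905) and Perp in ko against wt under Myc (0.0884). Diablo and Akt1 in ko against wt under Myc were lost with median centring (0.111 and 0.102). They were also lost without any 1 of the 6 arrays compared (0.0773 to 0.154 for Diablo and 0.0587 to 0.141 for Akt1). The same held for Fadd in ko against wt under Myc (0.0663 to 0.103) and Htra2 in ko against wt under GFP (0.0672 to 0.114). It also held for Dnm1l with Myc in wt (0.0696 to 0.138). Of 10 measured genes for the apoptosome, caspases and their activators, 3 rose and 1 fell in ko, and 1 rose and 1 fell in wt (median log2 difference 0.11 in ko and 0.08 in wt). Endog, a mitochondrial nuclease, rose 1.59-fold in ko (limma adjusted p = 0.00168) and 1.47-fold in wt (adjusted p = 0.00508). It had a mean intensity of 383 ± 35.9 in Myc Zfx ko against 241 ± 12.3 in GFP Zfx ko, and of 390 ± 35.2 in Myc Zfx wt against 265 ± 18.2 in GFP Zfx wt (SD, n = 3 each). Apaf1, which assembles with cytochrome c to activate caspase 9, was 1.27-fold lower with Myc in ko (adjusted p = 0.0154) and 1.22-fold lower in wt (adjusted p = 0.0397). Htra2, a protease released from mitochondria, rose 1.2-fold in ko (adjusted p = 0.0158), and Aifm1, the apoptosis-inducing factor of the respiratory chain, 1.31-fold (adjusted p = 0.0388). With the block the counts were 3 up and 2 down in ko and 4 up and 2 down in wt. Over all genes limma called 13.2% with Myc in ko and 9.28% in wt (24.9% and 20.5% with the block). For ko against wt it called 5.46% under Myc and 4.11% under GFP (14.1% and 12.2% with the block). The same shares stand beside the counts of the lists and markers below.

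In the same list Diablo (Smac), which relieves the block on caspases by inhibitor proteins, was the gene that rose between genotypes. Its intensity was 591, 772 and 672 in GFP Zfx ko, against 425, 504 and 417 in GFP Zfx wt, with no overlap. With the Myc virus it was 689, 784 and 688 in ko, against 550, 539 and 533 in wt, also with no overlap. That was 1.51-fold higher in ko under GFP (limma adjusted p = 0.0103) and 1.33-fold under Myc (adjusted p = 0.0472). Htra2 was 1.2-fold lower in ko under GFP (adjusted p = 0.0352) and 1.15-fold lower under Myc (adjusted p = 0.0891, or 0.0435 with the block). Diablo and Htra2 were the 1 rise and 1 fall of the list under GFP. Diablo was its 1 rise under Myc, with 0 down. With the block there were 2 up and 2 down under GFP and 1 up and 2 down under Myc.

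Genes listed as inhibitors of apoptosis or as death receptors and adaptors were called only downward with Myc in the fit without the block. Of 8 measured inhibitors 2 fell and 0 rose in ko, and 1 fell and 0 rose in wt, with median log2 differences of -0.45 in ko and -0.17 in wt. Naip2, an inflammasome sensor of myeloid cells, was 1.59-fold lower with Myc in ko (limma adjusted p = 0.00329) and 1.36-fold lower in wt (adjusted p = 0.0257). Birc3 (cIAP2), a ubiquitin ligase of the TNF pathway, was 1.45-fold lower in ko (adjusted p = 0.0369). With the block 5 inhibitors fell in ko and 3 in wt, among them Naip5 and Naip6, which are close relatives of Naip2 and may share signal. Of 10 death receptor and adaptor genes 3 fell and 0 rose in ko, and 2 fell and 0 rose in wt (4 down and 1 up in each with the block). Tnfrsf1a, the main TNF receptor, was 1.58-fold lower with Myc in ko (adjusted p = 0.00659) and 1.41-fold lower in wt (adjusted p = 0.0284). Tnfrsf1b, the second TNF receptor, was 1.5-fold lower in ko (adjusted p = 0.0259) and 1.54-fold lower in wt (adjusted p = 0.0246). Cflar (c-FLIP), which holds caspase 8 inactive, was 1.54-fold lower in ko (adjusted p = 0.00798). In wt its log2 difference with Myc was -0.39, with no overlap of the arrays (adjusted p = 0.0743, or 0.0217 with the block). Between genotypes, the death adaptor Fadd was 1.24-fold lower in ko under Myc (adjusted p = 0.0313). Under GFP its log2 difference was -0.24, with no overlap of the arrays (adjusted p = 0.108, or 0.0352 with the block). Fadd was the 1 gene of the list called between genotypes. Of the inhibitors 0 were called there, with 1 of 8 at an unadjusted p under 0.05 under each virus.

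The p53 arm that controls Bbc3 and Pmaip1 showed single genes. Of 10 measured genes 1 rose and 1 fell with Myc in ko, and 1 rose and 0 fell in wt (3 rose in wt with the block). Aen, a p53-induced nuclease, rose 1.2-fold in ko (limma adjusted p = 0.0388) and 1.33-fold in wt (adjusted p = 0.00676). Trp53inp1, a p53 target that promotes autophagy and death, was 1.7-fold lower with Myc in ko (adjusted p = 0.0116). Perp, a p53 target of the plasma membrane, was 2.82-fold lower in ko than in wt under Myc (adjusted p = 0.0201), at intensities of 195, 235 and 337 in ko against 432, 783 and 1016 in wt. Under GFP 0 of the 10 were called, with 1 at an unadjusted p under 0.05.

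Some partners on the outer mitochondrial membrane rose with Myc. In ko against wt, Vdac1 was called lower under GFP and Dnm1l under Myc. Of 12 measured genes 2 rose in ko and 3 in wt, and 0 fell (7 and 8 with the block), with median log2 differences of 0.22 in ko and 0.27 in wt. Vdac1, the main anion channel, rose 1.33-fold with Myc in ko (limma adjusted p = 0.00402). In wt its log2 difference was 0.21 (adjusted p = 0.0901, or 0.02 with the block). Tomm22, the import receptor that also takes part in Bax recruitment, rose 1.2-fold in ko (adjusted p = 0.0228) and 1.22-fold in wt (adjusted p = 0.0185). Hk2, the hexokinase that docks on Vdac, rose 1.27-fold in wt (adjusted p = 0.0317) and Dnm1l, the fission GTPase, 1.18-fold (adjusted p = 0.042). In ko the log2 difference of Dnm1l with Myc was 0.18 (adjusted p = 0.107, or 0.0338 with the block). Vdac1 was 1.29-fold lower in ko than in wt under GFP (adjusted p = 0.0155), a call lost in 4 of 6 fits without 1 array. Under Myc the mean intensity of Vdac1 was 5488 ± 330 in ko and 6140 ± 210 in wt (SD, n = 3 each). That difference was not called in either fit. Dnm1l was 1.21-fold lower in ko than in wt under Myc (adjusted p = 0.0328), a call lost in 5 of 6 fits without 1 array. Its log2 difference under GFP was -0.21 (adjusted p = 0.11, or 0.027 with the block). Of 19 genes that act on the stability or transcription of the family, 0 were called with Myc. At an unadjusted p under 0.05 there were 5 in ko and 3 in wt, where 24% of all genes in ko and 20.4% in wt had such a p. With the block 4 rose and 1 fell in ko, and 2 rose and 2 fell in wt. Between genotypes 1 of the 19 was called, Akt1, the kinase that phosphorylates Bad, which was 1.23-fold lower in ko under Myc (adjusted p = 0.0398). Under GFP the log2 difference of Akt1 was -0.24 (adjusted p = 0.11, or 0.0142 with the block). With the block 3 of the 19 fell and 0 rose in ko under GFP, and 2 fell and 1 rose under Myc.

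**Figure D4:**
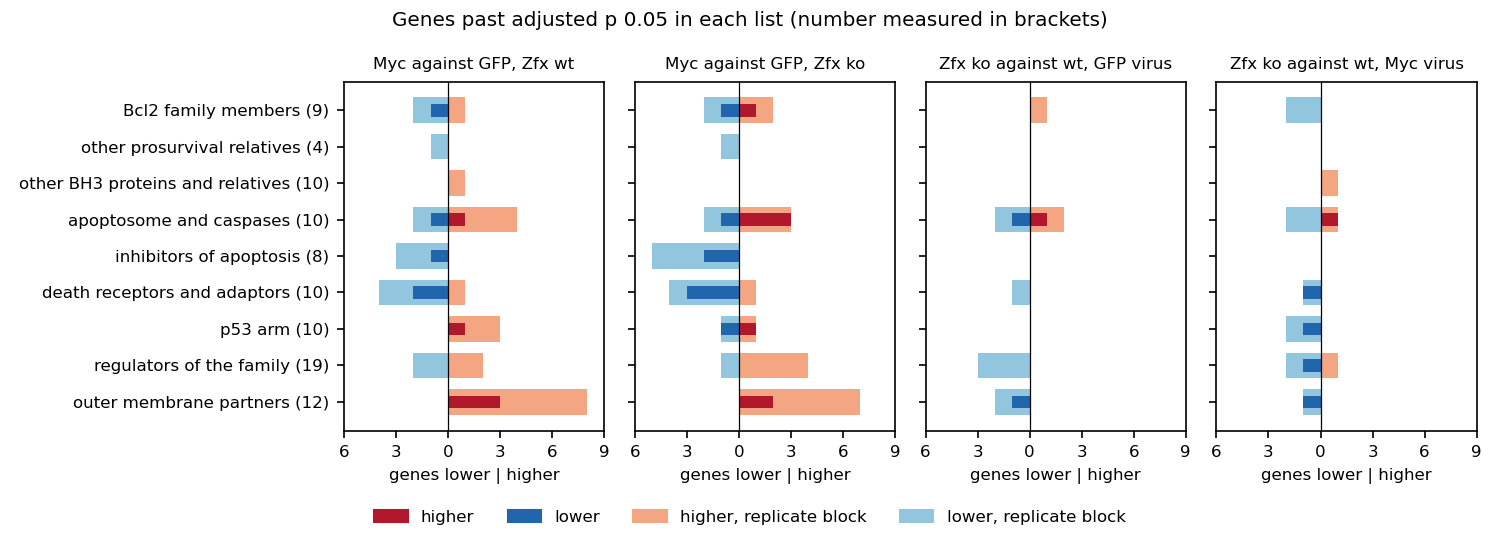
Number of genes past adjusted p 0.05 (x axis, lower to the left of 0 and higher to the right) in the Bcl2 family and 8 further cell death lists (rows, number measured in brackets) for the 4 comparisons of groups (panels); narrow dark bars are the limma fit without a block and wide pale bars the fit with the replicate block. Bars of death receptors and adaptors and of inhibitors point left in both Myc panels, apart from 1 death receptor gene that is higher with the block. Outer membrane bars point right there.

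Markers of neutrophils and of mast cells and basophils were called mostly lower with Myc, as Bcl2 was, whereas Bbc3 was called higher in ko. Of 12 neutrophil markers 10 fell with Myc in ko and 7 in wt, and 0 rose. Their summed intensity was 46004 to 53644 in Myc Zfx ko against 76481 to 94551 in GFP Zfx ko, and 38789 to 54070 in Myc Zfx wt against 76785 to 93838 in GFP Zfx wt. Of 12 mast cell and basophil markers 7 fell with Myc in each genotype, while 0 rose in ko and 1 rose in wt. In ko against wt, 5 of the 9 Bcl2 family members had positive differences and 4 negative ones under each virus. All 12 mast cell and basophil markers had negative differences there. Of these markers 3 were called lower under Myc and 2 under GFP (4 and 5 with the block). Their median log2 differences were -0.74 under Myc and -0.58 under GFP. Their sum was 4367 to 8104 in Myc Zfx ko and 8609 to 20252 in Myc Zfx wt, against 13023 to 17743 in GFP Zfx ko and 20072 to 26792 in GFP Zfx wt. Of 9 monocyte and macrophage markers 1 fell with Myc in ko and 2 in wt, and 0 rose. Their sum was 11750 to 18319 in Myc Zfx ko and 8483 to 15035 in Myc Zfx wt, against 20327 to 23646 in GFP Zfx ko and 16220 to 20825 in GFP Zfx wt. Of 9 erythroid markers 5 rose with Myc in ko and 1 in wt, and 4 were higher in ko than in wt under Myc. Their sum was 8001 to 13234 in Myc Zfx ko and 5168 to 6566 in Myc Zfx wt, against 5556 to 6523 in GFP Zfx ko and 4588 to 5720 in GFP Zfx wt. No marker on any list was at 0 on any array, the lowest intensity being 33.2. Of 7 megakaryocyte markers 0 were called with Myc in either genotype, with 2 in ko and 1 in wt at an unadjusted p under 0.05 (3 in ko and 2 in wt fell with the block). Of them 1 was called higher in ko than in wt under GFP and 0 under Myc (6 under each with the block). Their sum was 6802 to 20341 in Myc Zfx ko and 2430 to 8747 in Myc Zfx wt, against 24160 to 31936 in GFP Zfx ko and 8336 to 15994 in GFP Zfx wt. Of 6 eosinophil markers limma called 0 in every contrast in both fits, with 1 at an unadjusted p under 0.05, with Myc in wt. Their sum was 3184 to 6885 in Myc Zfx ko and 2894 to 8357 in Myc Zfx wt, against 4806 to 7973 in GFP Zfx ko and 8410 to 10185 in GFP Zfx wt. The T lymphoid list had 0 of 6 genes above 131.1, the array-wide median, and the B lymphoid list 2 of 8. The part of these cell types in the differences of Bcl2 and the other genes was not tested.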

How the data were processed

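Total RNA of 12 samples was labelled with a whole-transcript kit and hybridised, per the labels. Each value of the deposited table is an RMA intensity that the authors computed, per the submitters' processing notes; the sources used here give no software version. The values are on a linear scale (lowest 17.68 to 18.92, median 127 to 137.2, highest 22317 to 24493 per array), so log2 was taken. Of 35556 probe sets, 21789 have 1 gene symbol, 1621 have several and 12146 have no entry in the annotation. Symbols were updated through RefSeq identifiers (21698 matched), and the brightest probe set per gene was kept, which left 19938 genes.

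Groups, taken from the sample titles, were compared with limma 3.58.1 in R 4.3.3 (lmFit and eBayes, 8 residual degrees of freedom; 6 with the replicate block), adjusted p under 0.05. The fit was tested on simulated data in which the arrays varied independently, so that test does not cover deviations shared by arrays of equal replicate number. Intervals are 95% per gene and unadjusted; the number of arrays limits the precision. The labels do not say what replicate numbers share. Same-numbered arrays of different groups had correlated deviations in all 18 pairs (0.40 to 0.85, median 0.64; median -0.42 for other numbers), so the numbers were read as pairing the arrays. Within groups, arrays correlated at 0.9878 to 0.9957 and none were identical.

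The members, lists and tests were chosen with earlier results of these data known. All measured members are named; of each other list, up to 4 called genes per contrast, lowest adjusted p first. The 250 bases upstream of starts are RefSeq's (GRCm38.p6). Alternatives were the block, a second quantile normalization, median centring, an offset of 16, a trended and robust prior, array weights, only the groups compared, brighter genes, all probe sets and leaving out arrays.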

Additional observations from a re-analysis of the deposited data

How the results depend on the processing

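Called members. With the replicate block the calls were 3 with Myc in wt, 4 in ko, 1 for ko against wt under GFP and 2 under Myc. Array weights gave 2 with Myc in wt (Bid added), 1 in ko against wt under GFP (Mcl1) and 1 under Myc (Bcl2). With only the groups compared there were 0 with Myc in wt, since Bcl2 reached adjusted p = 0.0683, and 1 in ko, where Bbc3 reached 0.142. A second quantile normalization, median centring, and a trended and robust prior each left 1 in ko: Bbc3 was not called, at adjusted p = 0.0583, 0.0643 and 0.143. Leaving out arrays gave 0 to 2 called members with Myc in wt, 0 to 2 in ko, 0 for ko against wt under GFP, 0 to 1 under Myc and 0 for the interaction. The cause was not tested, except that fewer arrays enter some fits.

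All genes. The block called 4082 genes with Myc in wt, 4959 in ko, 2440 for ko against wt under GFP, 2808 under Myc and 1 for the interaction. Array weights called 3209 with Myc in wt and 1610 for ko against wt under GFP. With only the groups compared, 1418 were called with Myc in ko and 562 for ko against wt under Myc. Leaving out arrays gave 1 to 1629 with Myc in wt, 115 to 2440 in ko, 110 to 567 for ko against wt under GFP, 121 to 935 under Myc and 0 to 4 for the interaction. In the 4 comparisons of groups the lowest counts came without all arrays numbered 3.

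Single genes. Of 396 member values under the alternatives that keep the arrays of the groups compared, 381 kept their side of the threshold, 5 lost and 10 gained a call, and no called value changed sign. Of 30 calls of other cell death genes, 7 held without each array in turn (Endog and Aen in wt; Endog, Naip2, Tnfrsf1a, Cflar and Vdac1 with Myc in ko) and 23 were lost without at least 1. Under the alternatives that keep the arrays, 10 of the 30 held and 20 were lost under at least 1, with 0 changes of sign. The replicate block added calls of Bcl2l1 and Bid with Myc in each genotype. In ko against wt it added Mcl1 under GFP, and Bak1 and Bid under Myc. It changed no other call among the members.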
